A study of Mus musculus with 2 samples.

Results

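The genes examined were the anti-apoptotic BCL2 genes Bcl2, Bcl2l1, Bcl2l2 and Mcl1 and the effector genes Bax and Bak1, 6 of 21532 mouse protein-coding genes with known transcription starts. The measurement was MEF2A chromatin immunoprecipitation followed by sequencing (ChIP-seq) in CH12.LX, a mouse B-cell lymphoma line of strain B10.H-2aH-4bp/Wts. There was 1 group of 2 biological replicates, which were separate biosamples of the same line, with no treatment or comparison antibody in the labels; the control library was not analysed here. A peak belonged to a gene when its summit lay in the gene or within 50 kb of a start of that gene. The main list was the authors' optimal set on mm10, which keeps peaks ranked reproducibly between lists (irreproducible discovery rate, IDR) and held 31497 peaks; 64 of them belonged to the 6 genes.

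The proteins of these genes decide whether the outer mitochondrial membrane stays intact. BAX and BAK1, once activated by proteins with a BH3 domain, assemble into pores that release cytochrome c and start the caspase cascade. BCL2, BCL-XL (encoded by Bcl2l1), BCL-W (encoded by Bcl2l2) and MCL1 bind the activators and the effectors and keep the pores from forming, and B cells and their lymphomas are known to rely on several of them. MEF2A belongs to the MADS-box family of DNA-binding proteins, and the AT-rich element it recognises is called the MEF2 consensus here.

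The files hold peaks, not reads or RNA, so the read depth is unknown and neither expression nor an effect of binding on these genes was measured. The signal of a peak is the authors' own value and was used only within its list, where rank 1 is the highest signal; over the optimal set it had a median of 34.9 and ranged from 6.41 to 535. All 7 listed B cell genes had a peak, among them Cd79b with a strongest signal of 214. Of the T cell genes 3 of 4 had a peak, all but Cd8a, and of the myeloid genes 3 of 3, so peaks alone do not check the cell type label.

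The windows printed here come from a second list on mm9, the build whose genome sequence was at hand. They were picked for a MEF2 match or for strength and are not typical. Of 46 member windows on mm9, 3 held the MEF2 consensus (6.52%), against 7.13% of all mm9 peaks. Each of the next lines is the 101-base window around the summit of an mm9 peak, on the plus strand. The first 3 are the windows assigned to these genes that held an exact MEF2 consensus, which is in capitals. The next 3 are the strongest intron peaks of Bcl2 and Bcl2l1, which held none. In them, and in the first line, the NF-kB consensus is in capitals too where present.
Bcl2 intron, chr1:108515585-108515685 (NF-kB match first, MEF2 match CTATTAATAG second): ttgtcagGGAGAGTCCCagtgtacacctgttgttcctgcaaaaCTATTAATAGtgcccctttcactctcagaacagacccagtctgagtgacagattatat
Mcl1 downstream, nearer, chr3:95477431-95477531 (MEF2 match CTAAATTTAG): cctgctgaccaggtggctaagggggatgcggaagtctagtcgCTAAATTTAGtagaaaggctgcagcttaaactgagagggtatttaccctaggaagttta
Mcl1 downstream, farther, chr3:95496799-95496899 (MEF2 match CTATTTATAG): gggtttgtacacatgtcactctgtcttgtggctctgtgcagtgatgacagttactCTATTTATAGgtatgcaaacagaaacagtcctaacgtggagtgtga
Bcl2 intron, strongest, chr1:108457790-108457890 (no match): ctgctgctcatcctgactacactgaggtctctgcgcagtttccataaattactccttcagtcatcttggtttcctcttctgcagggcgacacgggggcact
Bcl2 intron, second, chr1:108464189-108464289 (NF-kB match): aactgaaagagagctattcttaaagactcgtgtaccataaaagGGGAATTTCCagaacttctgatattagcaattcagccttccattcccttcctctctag
Bcl2l1 intron, strongest, chr2:152651514-152651614 (NF-kB match): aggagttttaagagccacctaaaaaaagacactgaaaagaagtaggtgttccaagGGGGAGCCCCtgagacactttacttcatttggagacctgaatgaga

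Of the 6 genes, 5 had at least 1 optimal peak and Bcl2l2 had none; of all protein-coding genes 68.6% had one by the same rule. Bcl2 had 29 peaks, Mcl1 14, Bcl2l1 11, and Bax and Bak1 5 each, where the median gene had 2. A peak lay within 1 kb of a start of 5 of the 6 genes, against 30.9% of all genes. The 4 anti-apoptotic genes together held 54 peaks with a median signal of 42.8 and a highest signal of 172. The 2 effectors held 10, with a median of 31.0 and a highest of 44.0. The groups differ in number of genes, peaks and sequence searched, so their totals and highest values are not on a like footing. Of the 64 peaks, 13 (20.3%) were in the strongest 10% of the optimal set (rank 3149 or better), against 9.98% of the other peaks. All 13 were at Bcl2, Bcl2l1 and Mcl1, with 4, 3 and 6, and none at Bax or Bak1. The members were chosen with earlier results known and peaks that neighbour each other are not independent, so no test was made of these counts.

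**Figure D1:**
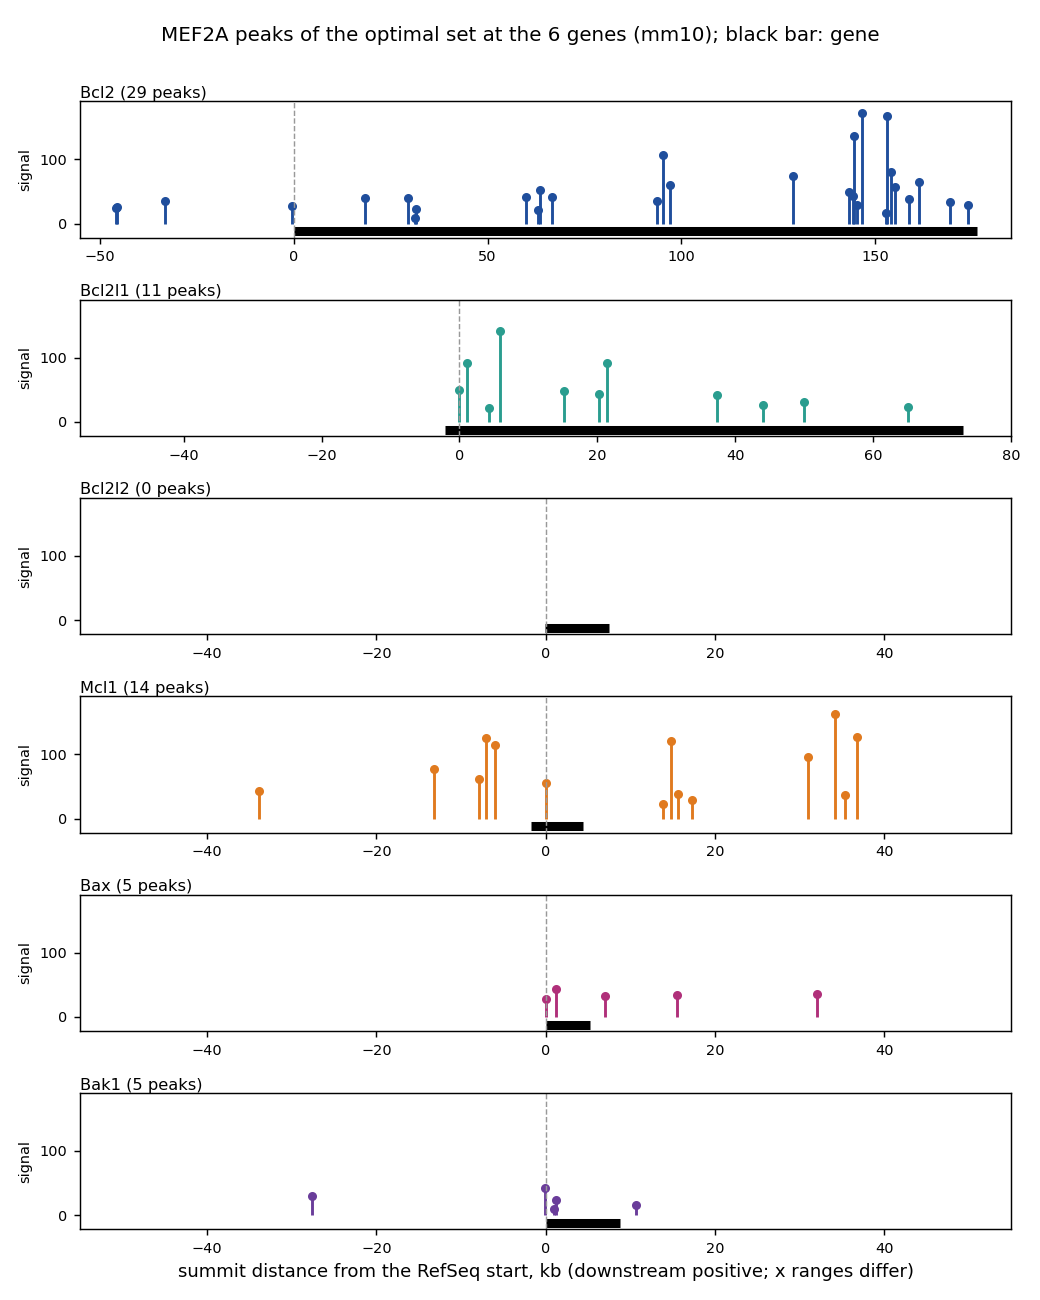
Signal of each optimal peak (vertical axis, the authors' units) against the distance of its summit from the gene's most upstream start in the RefSeq promoter table (horizontal axis, kb, downstream positive), with 1 panel per gene and the gene drawn as a black bar. Bcl2 peaks extend across the whole gene with the highest, 172 and 167, near its far end; Mcl1 peaks lie on either side of a short gene; Bcl2l2 has none.

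Bcl2, the founding inhibitor of apoptosis in the family, spans chr1:106538176-106714290 on the minus strand of mm10, 176115 bp. Its 29 peaks, 26 separate regions once overlapping intervals were merged, amounted to 12.8 per 100 kb of the sequence searched, against a median of 1.74 over all genes. That count was higher than in 99.9% of genes, with 12 genes, Bcl2 among them, at 29 or more, and the density was higher than in 98.4%. The rule searches more sequence at a long gene, so the density is given beside the count. What length adds to the count was not tested. Of the 29, 25 lay inside the gene and were assigned to no other protein-coding gene, and 14 lay over 100 kb downstream of the start.

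The peak nearest the Bcl2 start was not a strong one. It lay 404 bp upstream (chr1:106714514-106714873) with a signal of 27.4, rank 21876, and overlapped intervals of rank 17403 in replicate 1 and rank 36973 in replicate 2. The 2 farthest upstream peaks, with signals of 23.7 and 25.3, lay 191 and 54 bp from a start of Kdsr, a neighbouring gene of sphingolipid synthesis, and overlapped each other.

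The strongest Bcl2 peaks lay toward the far end of the gene. The first had a signal of 172 and rank 867, 146629 bp downstream (chr1:106567481-106567840). Its best overlapping interval ranked 674 in replicate 1 with a signal of 72.3, and 1031 in replicate 2 with 101. The next, 153031 bp downstream (chr1:106561197-106561333), had a signal of 167 and rank 919, with ranks of 589 and 1456 in replicates 1 and 2. The one after that, 144498 bp downstream, had a signal of 136 and rank 1430, with ranks of 690 and 2870. All 3 were thus among the strongest intervals of either replicate. The densest 10 kb window that begins at a Bcl2 summit held 7 summits, between 144290 and 153942 bp from the start. Of all windows that begin at an optimal summit, 99.3% held fewer. That share is for a window picked as the densest of its gene. The 10 kb width was also chosen after the data were seen. The intervals 152830 and 153031 bp downstream overlap each other, and those 144290 and 144498 bp downstream share a replicate 1 interval. In the mm9 annotation the 3 strongest peaks were intronic. Around them stood weaker ones, such as those 128757, 153942 and 161244 bp downstream with signals of 74.1, 80.8 and 64.1.

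A separate strong Bcl2 peak stood 95230 bp downstream (chr1:106618880-106619239), with a signal of 106, rank 2326, and ranks of 2615 and 2418 in replicates 1 and 2. It lies at the same distance from the start, within 2 bp, as the mm9 peak with the MEF2 consensus printed above. The weakest Bcl2 peak had a signal of 9.08, rank 30753, and shared its replicate intervals with its stronger neighbour 31457 bp downstream.

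Mcl1, which encodes a short-lived inhibitor, spans only 6236 bp (chr3:95656944-95663179, plus strand), and 13 of its 14 peaks lay outside the gene. They amounted to 13.8 per 100 kb, a density above that of 98.8% of genes. The promoter peak, 23 bp downstream of the RefSeq start (chr3:95658564-95658923), had a signal of 54.6, rank 7620, with ranks of 7665 and 10423 in replicates 1 and 2. It was weaker than 8 of the other 13.

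Upstream of Mcl1 stood 4 peaks 5967, 7067, 7881 and 13251 bp from that start, with signals of 114, 126, 62.1 and 77.1. Mcl1 was the nearest protein-coding gene for all 4. The strongest of them (chr3:95651474-95651833, rank 1672) ranked 1620 in replicate 1 and 1645 in replicate 2, close to its rank in the optimal set. A peak 33828 bp upstream, with a signal of 42.9, was 87 bp from a start of Ensa.

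The highest Mcl1 signals were downstream, where other genes are nearer. The peak 34205 bp downstream (chr3:95692923-95693019) had a signal of 163, rank 957, and ranked 1221 in replicate 1 and 840 in replicate 2. The peak 36744 bp downstream had a signal of 127, and the peak 31044 bp downstream one of 95.9. The start nearest to all of these belonged to Adamtsl4, which encodes an extracellular matrix protein, 4999, 7538 and 1838 bp away. A further peak 14839 bp downstream (chr3:95673380-95673739), with a signal of 121, rank 1807, and ranks of 1769 and 1973 in replicates 1 and 2, lay 14357 bp from an Adamtsl4 start. It was therefore nearly midway between Mcl1 and Adamtsl4. The 4 other downstream peaks were weaker, with signals of 22.3 to 38.5. Only 6 of the 14 peaks had Mcl1 as the nearest gene, and each of the 14 was also assigned to 1 or more other genes, so which gene a peak serves cannot be read from these lists.

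Bcl2l1, which encodes the inhibitor BCL-XL and, by alternative splicing, a shorter form that promotes death, lies on the minus strand (chr2:152758732-152833803) and had all 11 peaks inside the gene. The density was 8.79 per 100 kb, above that of 94.0% of genes. Of its 3 starts in the RefSeq promoter table, 2 had a peak over their promoter window. The peak 39 bp upstream of the most upstream start in the promoter table (chr2:152831587-152831946) had a signal of 50.4, rank 8736, and the peak 7 bp downstream of the next start (chr2:152830530-152830889) one of 91.6, rank 3087. The replicates agreed better on the second, with ranks of 2593 and 3535 in replicates 1 and 2, than on the first, with 28100 and 6713.

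The strongest Bcl2l1 peak lay 2670 bp downstream of its nearest start and 5909 bp downstream of the most upstream one in the promoter table (chr2:152825639-152825998). It had a signal of 141, rank 1338, and ranked 1023 in replicate 1 and 1717 in replicate 2. Another, 21415 bp downstream of the most upstream start in that table, had a signal of 92.1, rank 3057. The peaks between and beyond these had signals of at most 48.1, and the last 3, with signals of 26.7, 30.3 and 22.7, lay nearer to the start of Cox4i2 than to one of Bcl2l1. Each of the 11 Bcl2l1 peaks was also assigned to Tpx2, Cox4i2 or Id1. The strongest and the 2 promoter peaks were among those shared with Tpx2.

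Bcl2l2, which encodes BCL-W, was the only member without an optimal peak (chr14:54883366-54890858, plus strand); 31.4% of all genes had none. The nearest optimal peak was 101483 bp upstream, 3 bp from a start of Slc7a8, with a signal of 25.9. Each replicate list holds 300000 relaxed intervals, described as peaks and background together, and 18 of these in replicate 1 and 23 in replicate 2 fell at Bcl2l2. Per 100 kb, 51.2% and 62.2% of genes had fewer in replicates 1 and 2, so these counts are near the middle of all genes. The best ranked 23947 in replicate 1, 5793 bp upstream with a signal of 11.4, and had no overlap in replicate 2. The best in replicate 2 ranked 39961, 18717 bp upstream with a signal of 12.3, and had no overlap in replicate 1. The next intervals of replicate 1, of rank 27240 and 31883, did overlap replicate 2 intervals, of rank 70015 and 66769, the last being the second best of replicate 2 there. All of these ranks are lower than those of the strongest peak of any other member in the same replicate. On mm9 1 peak met the rule, 10178 bp downstream of a start, but it ranked 15565 of 16839 and had Pabpn1 as its nearest gene.

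Bax and Bak1, which encode the pore-forming effectors, had 5.0 peaks per 100 kb each, a density above that of 81.5% of genes, and no peak of high rank. At Bax (chr7:45461695-45466903, minus strand) the strongest peak, 1208 bp downstream of the start (chr7:45465510-45465869), had a signal of 44.0, rank 10953, and ranks of 13595 and 12984 in replicates 1 and 2. In replicate 1 and on mm9 the highest at Bax was instead the peak about 32 kb downstream, at the Gys1 start, with a rank of 11392 in replicate 1 and 10365 on mm9. The Bax peak at the start, 86 bp downstream (chr7:45466632-45466991), was weaker, with a signal of 28.1, rank 21241. The other 3 lay outside Bax, with signals of 32.7, 33.5 and 35.4. The first of them was 31 bp from a start of Ftl1, which encodes a ferritin subunit, and the last 2 bp from a start of Gys1, which encodes glycogen synthase. Bax lies in a gene-dense stretch, and each of its 5 peaks was assigned to at least 7 other genes.

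At Bak1 (chr17:27019812-27028627, minus strand) the strongest peak was the promoter peak, 23 bp upstream of the start (chr17:27028470-27028829), with a signal of 42.1, rank 11795, and ranks of 17496 and 10952 in replicates 1 and 2. A pair of overlapping intervals 988 and 1189 bp downstream had signals of 10.3 and 24.5. The remaining peaks were 29 bp from a start of Ggnbp1, with a signal of 16.7, and 788 bp from one of Itpr3, which encodes a calcium channel of the endoplasmic reticulum, with a signal of 29.3. Each of the 5 Bak1 peaks, the promoter peak included, was also assigned to Ggnbp1 and Itpr3. Bax and Bak1 therefore each had modest peaks at and just downstream of the start, and their remaining peaks sat nearer to neighbouring genes. Neither trait was particular to them. The Bcl2 peak nearest its start had a signal of 27.4, and only 6 of the 14 Mcl1 peaks had Mcl1 as the nearest gene.

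**Figure D2:**
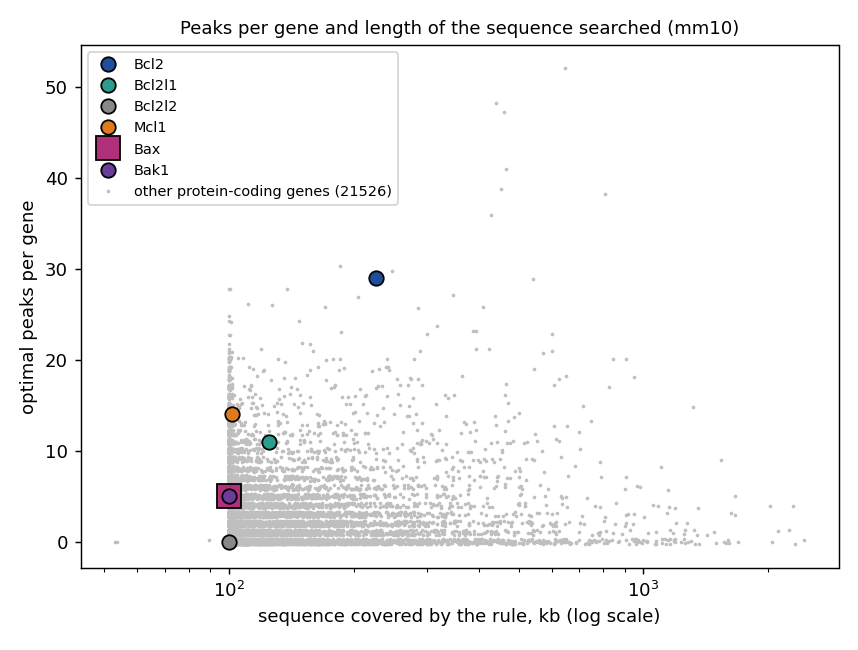
Optimal peaks per gene (vertical axis) against the length of sequence covered by the rule (horizontal axis, kb, log scale) for the 6 genes and the other 21526 protein-coding genes; the grey points are shifted slightly at random up or down. Bcl2, Mcl1 and Bcl2l1 lie above most genes of like length, Bax (square) and Bak1 coincide at 5 peaks, and Bcl2l2 lies at 0.

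Nearly all of the member peaks were found again in the replicate lists, which says little by itself. Of the 64, 62 overlapped an interval in both lists, against 97.6% of all optimal peaks. The exceptions were Bcl2 peaks 18372 and 66744 bp downstream, with signals of 40.4 and 41.4, which had replicate 2 intervals of rank 8893 and 8610 and none in replicate 1. Counting only replicate intervals ranked 31497 or better left 45 of the 64, against 64.7% of all optimal peaks. By gene these were 21 of 29 at Bcl2, 10 of 14 at Mcl1, 8 of 11 at Bcl2l1, 4 of 5 at Bax and 2 of 5 at Bak1.

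Across the 62 peaks with both ranks, the Spearman correlation between replicate ranks was 0.61, and across all 30739 such optimal peaks it was 0.60. The points share the pooled call that chose them, and 10 of the member peaks share their replicate 1 interval with a neighbour. The ranks of single peaks could still lie far apart. The Bcl2 peak 144290 bp downstream, with a signal of 43.2, ranked 690 in replicate 1, through an interval it shares with its stronger neighbour, and 30672 in replicate 2. The Mcl1 peak 17280 bp downstream ranked 143733 in replicate 1 and 17364 in replicate 2, and the Bak1 peak near Ggnbp1 ranked 202425 and 75234. The peaks described above as strong were high in both lists.

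**Figure D3:**
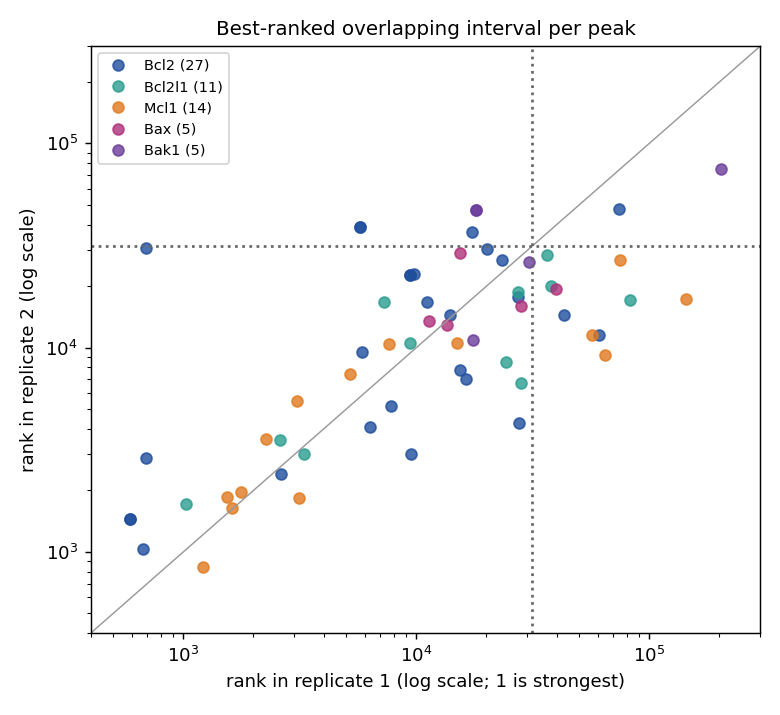
Rank of the best overlapping interval in replicate 1 (horizontal axis) and replicate 2 (vertical axis), both log scales with 1 the strongest, for the 62 member peaks with an interval in both lists; dotted lines mark rank 31497 and the grey line equal ranks. The strongest Bcl2, Bcl2l1 and Mcl1 peaks lie at the lower left, while Bax and Bak1 peaks lie right of or above those, none of them ranked better than 10952 in either replicate.

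The mm9 list, with 16839 peaks and GENCODE starts of all protein-coding transcripts, gave all 6 genes a peak, against 55.3% of genes by the same rule. There were 22 at Bcl2, 12 at Mcl1, 7 at Bcl2l1, 2 each at Bax and Bak1 and 1 at Bcl2l2. The RefSeq starts were found on mm9 by exact match of their promoter sequence, and 39 of the 46 peaks lay within 100 bp of the same distance from the start as an optimal peak. The order at Bcl2 was close to that on mm10, with the mm9 peak 153027 bp downstream first (signal 270, rank 746) and the one 146628 bp downstream second (252, rank 849). The lists come from the same libraries, so this agreement is not independent. The 7 mm9 peaks with no optimal counterpart were 4 at Bcl2, 2 at Mcl1 and the 1 at Bcl2l2. One of them lay in a Bcl2 coding exon, 1798 bp downstream, with a signal of 57.4, rank 9445.

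The MEF2 consensus, searched on both strands within 50 bp of the summit, occurred at 3 of the 46 member peaks (6.52%), against 7.13% of all mm9 peaks. The share was thus near the background. The matches were the ones printed above: at Bcl2 2 bp from the summit (peak rank 2650, signal 129), and at Mcl1 3 bp from the summit (rank 1552, signal 177) and 10 bp from the summit (rank 872, signal 250). All 3 were also of the stricter form with C first and G last, which 3.64% of all mm9 peaks held. None was at a promoter, and none was at Bcl2l1, Bcl2l2, Bax or Bak1. The optimal peaks at the same distances had signals of 106, 121 and 163.

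The strongest Bcl2 and Bcl2l1 peaks held no exact match. The window of the strongest Bcl2 peak had at least 2 mismatches to the consensus at every position, and the windows of the second Bcl2 peak and of the strongest Bcl2l1 peak at least 1. With 1 mismatch allowed, an alternative added after the data were seen, 9 of 46 member windows matched (19.6%), against 23.6% of all. The core of the consensus, TA at either end of 4 A or T letters, added the Mcl1 peak 31045 bp downstream, for 4 of 46 (8.70%), against 11.2% of all.

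**Figure D4:**
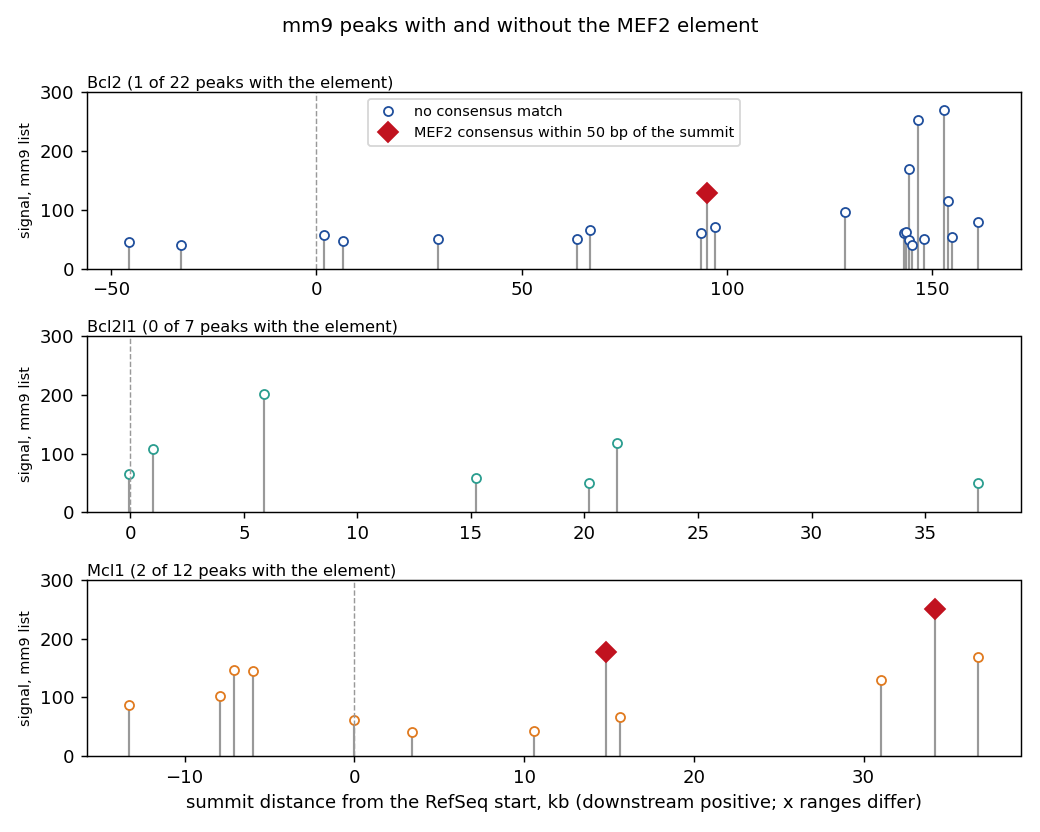
Signal of each mm9 peak (vertical axis, the authors' units of that list) against summit distance from the RefSeq start (horizontal axis, kb, downstream positive) at Bcl2, Bcl2l1 and Mcl1; red diamonds mark peaks with the MEF2 consensus within 50 bp of the summit. The element stands under 1 of 22, 0 of 7 and 2 of 12 peaks, among them the strongest at Mcl1 (signal 250) but not the strongest at Bcl2 (signal 270).

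Of the other motifs searched in the same windows, the NF-kB consensus was the most frequent at the member peaks, at 8 of 46 (17.4%), against 8.37% of all mm9 peaks. It occurred at 5 Bcl2 peaks, 2 Mcl1 peaks and 1 Bcl2l1 peak, and its match lay 2 bp from the summit in the second Bcl2 window printed above. AP-1 (TGANTCA) and RUNX (TGTGGT) each occurred at 3 (6.52%), against 12.2% and 13.3% of all. PU.1 (GAGGAAGT) also occurred at 3, against 3.24% of all, the octamer (ATGCAAAT) at 2, against 3.12%, and ETS-IRF at 2, against 4.39%. The E-box (CACGTG) occurred at 1, against 2.63% of all, and EBF1 and CRE (TGACGTCA) at none, against 1.21% and 1.09%. These counts are small, a match is only a run of letters, and factors other than MEF2A were not measured.

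Promoter windows from RefSeq (GRCm38.p6) run 250 bases before to 50 after each start, and 8 of them matched the 6 genes. Among these only the most upstream Bcl2l1 promoter held a MEF2 consensus, as did 3.19% of all 32851 promoters. The 250 bases before that start, chr2:152831729-152831978 on the minus strand, are shown because a peak overlaps them, with the match in capitals.
Bcl2l1 upstream: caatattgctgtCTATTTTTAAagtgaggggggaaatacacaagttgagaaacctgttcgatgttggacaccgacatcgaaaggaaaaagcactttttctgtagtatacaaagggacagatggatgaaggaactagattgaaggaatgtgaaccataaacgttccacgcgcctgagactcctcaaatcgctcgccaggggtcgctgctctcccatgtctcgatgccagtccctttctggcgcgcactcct
The match begins 238 bp upstream of the start and lies 194 bp from the summit of the peak there (signal 50.4), outside its interval. The next Bcl2l1 promoter held an NF-kB match, as did 8.46% of all promoters, also outside the overlapping peak. The Bak1 promoter held a PU.1 match 5 bp from the summit of its peak (signal 42.1), as did 3.20% of promoters, and a RUNX match, as did 16.8%. The Bax promoter held 2 E-boxes inside its peak (signal 28.1), as 7.15% of promoters held at least 1. No motif searched matched in the promoters of Bcl2, Bcl2l2 or Mcl1.

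Genes whose strongest peaks ranked most like those of each member over 4 lists (optimal, replicate 1, replicate 2 and mm9) were found among 10228 genes with a rank in all 4, by the sum of absolute log2 rank differences. For Bcl2 they were Id3 (sum 0.33) and Armc2 (0.41). For Bcl2l1 they were Ppp2r5d and Pex6 (0.24 each, through the same peak), and for Mcl1 Dtd1 (0.27) and St3gal2 (0.29). For Bax they were Trerf1 (0.14) and Mex3d (0.15), and for Bak1 Timm17a (0.16) and Nme5 (0.24). Bcl2l2 has no optimal rank and was not placed.

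Around the 6 genes, a list of 43 other genes of the apoptosis pathway had 37 with a peak (86.0%), against 68.6% of all genes; no test was made of it. Of the 8 genes of BH3 proteins, whose products bind the members, 7 had one and Bad had none. The strongest were a signal of 467 at Bbc3, which encodes PUMA, 11342 bp upstream but nearest to Ccdc9, then 298 at Bmf and 154 at Pmaip1, which encodes NOXA. These were higher than the strongest peak of Bax (44.0) or Bak1 (42.1), and Bbc3 and Bmf were higher than that of Bcl2 (172). Of the 9 other BCL2 family genes 7 had a peak. The strongest signals were 96.6 at Bcl2l15 (nearest gene Ptpn22), 42.3 at Bcl2l13 and 41.2 at Bcl2l12 (nearest gene Scaf1). Bcl2a1b and Bcl2a1d, near-identical copies of an anti-apoptotic gene, had none in the optimal set and 1 each on mm9, and values at these copies are uncertain.

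All 8 genes of the apoptosome and caspases had a peak, among them signals of 105 for Casp9 (nearest gene Agmat) and 104 in Apaf1 (nearest start Ikbip). Of the 6 genes of inhibitor of apoptosis proteins (IAPs) and their antagonists 5 had one, and Xiap had none. The signal of 191 for Birc5 lay 49875 bp upstream and nearest to 6030468B19Rik. The signal of 158 for Htra2 lay 49561 bp downstream and nearest to Dok1. Birc2 and Birc3 share a peak with a signal of 100, nearest to Birc3. The 3 mitochondrial porin genes, Vdac1, Vdac2 and Vdac3, all had a peak, with strongest signals of 74.9, 56.7 (nearest gene Comtd1) and 32.8. Of the 9 genes for regulators of the member proteins 7 had one, and Usp9x and Bag3 had none. The strongest were 213 for Tmbim6, 41202 bp upstream but nearest to Fmnl3, 162 at the Mdm2 start and 69.3 for Aven (nearest gene Emc7).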

How the data were processed

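MEF2A ChIP-seq of CH12.LX gave 6 peak lists in narrowPeak layout. Per the file headers and accompanying notes, the authors called 300000 relaxed intervals on the alignments of each replicate alone and made both IDR sets from these and from a call on the pooled replicates; 96.4% of optimal intervals are 360 bp wide. The mm9 list was derived from the alignments of both replicates. Which programs aligned the reads and called the peaks is not given in the sources used here; nor are versions. The deposited signal was ranked within each list. The deposited score of the q-value column, which falls below 0 in places, was used only as another ranking. The pooled relaxed list was not used.

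Starts on mm10 came from RefSeq (GRCm38.p6), every start in its promoter table and the outermost gene end, for 21532 of 21883 protein-coding genes; strand came from that table for 17491 and from GENCODE vM1 by symbol for 4041. On mm9 (NCBIM37) all protein-coding GENCODE vM1 transcripts of 22219 genes were used. No coordinates were converted. Lists overlapped when they shared 1 bp. The motif windows are 101 bases, searched exactly on both strands. Assignment and motif search were tested on simulated data. The MEF2 and NF-kB consensus were the standard 10-letter forms with ambiguous letters. Coordinates are 1-based.

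The members, lists and motifs were chosen with earlier results of these data known. The text names all 6 members, in each pathway group up to 3 genes with the strongest peak and every gene without one where 4 or fewer lack one, the gene nearest to each member's strongest peak, and 2 genes alike per member that do not share its strongest peak; neighbours of other peaks were named after their values were seen. 1 gene that the rule selects is not reported here. With 1 group no test was possible, and no p-value is given. Alternatives were other distances, gene body left out, nearest start only, the conservative set, the stronger 50% of peaks, each replicate alone, the mm9 list, other overlap rules and other forms and windows of the element. Figures were drawn with matplotlib 3.10.9, and tables made in Python 3.11.15 using scipy 1.17.1, pandas 2.3.3 and numpy 2.4.6.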

Additional observations from a re-analysis of the deposited data

How the results depend on the processing

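Of 140 alternative values, 109 stayed within 1.5 times the reported one and 31 did not. The 109 include all 25 ranks of strongest peaks, though at Bcl2 and Bax the strongest peak differed in replicate 1 and on mm9. These ranks were not scaled to the length of the list, 31497 in the optimal set and 16839 on mm9. As a percentage of its list, the best rank was 2.75 at Bcl2, 4.25 at Bcl2l1 and 3.04 at Mcl1 in the optimal set. On mm9 it was 4.43, 7.47 and 5.18. Bax went from 34.77 to 61.55 and Bak1 from 37.45 to 66.90, so by that measure each gene moved by more than 1.5 times. The 64 member peaks became 42 without the gene bodies and 40 with the stronger 50% of peaks. Bcl2 had 8 and 18 under these settings in place of 29. Bcl2l1 had 7 with the stronger 50% and 7 on mm9. Mcl1 had 4 within 10 kb and 6 by nearest start. Bax had 3 within 10 kb, 9 within 100 kb, 2 by nearest start, 2 with the stronger 50% and 2 on mm9. With the conservative set Bax had 10, of which 5 were not in the optimal set and had signals of 10.7 to 19.4. Bak1 had 3 within 10 kb, 3 by nearest start, 1 with the stronger 50% and 2 on mm9. With 1 replicate left out and the 31497 strongest intervals of the other taken, Bcl2l2 had 0 to 2 (2 without replicate 2), Bax 6 to 8 and Bak1 2 to 7. Bcl2l2 had 1 on mm9. Member windows with the MEF2 element numbered 9 with 1 mismatch allowed and 1 with the distance cut to 10 kb. That setting still counts gene bodies, and the 1 left was the Bcl2 intron window, 95216 bp from its nearest start. Per 100 kb, the stronger 50% gave 7.96 at Bcl2, 5.6 at Bcl2l1, 2.0 at Bax and 1.0 at Bak1, the 10 kb window 15.0 at Bax and at Bak1, and the conservative set 10 at Bax. The cause of these shifts was not tested beyond what each setting removes or adds. Read depth is unknown. No paired analysis was possible because the series has 1 group.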
